A study of Mus musculus with 3 samples.

Results

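The genes described here encode the proteasome, the barrel-shaped protease that degrades ubiquitin-tagged proteins, and its regulators. They were taken by name, as every protein-coding gene whose symbol starts with Psma, Psmb, Psmc, Psmd, Psme, Psmf or Psmg and whose entry stood alone at its locus, which gave 44 genes of 15708 named protein-coding genes. RefSeq lists 51 protein-coding genes with such symbols. Of the other 7, Psma3, Psma4, Psma5, Psmd1, Psme1 and Psmc3ip lie at a locus with several entries and have values by entry, and Psme2b has no entry that can be assigned to it. The subunits of the immunoproteasome, Psmb8, Psmb9 and Psmb10, and of its activator, Psme1 and Psme2, were set apart, which left 4 named immunoproteasome genes and 40 others, called constitutive here. The naming rule uses no measured value.

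RNA was sequenced from 3 populations of mouse heart fibroblasts, with 1 library per group, to compare fibroblast subsets that arise after myocardial infarction (MI) with each other and with cells of the uninjured heart. FSP1+ fibroblasts were sorted at day 10 after MI from FSP1-GFP transgenic mice as GFP+ cells without CD45 or CD31, the surface markers of leukocytes and endothelial cells. αSMA+ fibroblasts were sorted at day 10 after MI from aSMA-GFP transgenic mice on GFP alone. Uninjured fibroblasts came from WT mice without infarction, were selected by adhesion to culture plastic for 4 h and were not sorted on GFP, so injury and handling cannot be told apart in comparisons with them. All mice had the C57/BL6 background and are given an age of 12 weeks in the sample labels, which the methods state as a minimum. GFP is driven by the promoter of FSP1 (gene S100a4) in the first line and of αSMA (gene Acta2) in the second, and it marks any cell that uses that promoter. The study states that each sort drew on pooled homogenates of several infarcted hearts, so a sorted library is a pool of animals. As no group has a replicate, no difference below has a replicate check, no test was run, and all values describe these 3 libraries.

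The 20S core of the proteasome consists of rings of α subunits (Psma genes), which form the gate, and rings of β subunits (Psmb genes), of which β1, β2 and β5, encoded by Psmb6, Psmb7 and Psmb5, cut peptide bonds. Interferon γ induces β1i (Psmb9), β2i (Psmb10) and β5i (Psmb8), which replace these in newly built particles and change the peptides that are made for display on MHC class I. The 19S regulatory particle, a base of ATPases (Psmc genes) and other subunits under a lid (Psmd genes), binds ubiquitin chains, unfolds the substrate and feeds it into the core, whereas the PA28αβ ring (Psme1 and Psme2), PA28γ (Psme3) and PA200 (Psme4) open the core without ubiquitin or ATP. Fibroblasts and heart muscle make the constitutive form, and leukocytes are rich in the immunoproteasome.

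Values are FPKM, fragments scaled by transcript length and sequencing depth, so that levels can be compared between genes. Each comparison was read from the deposited table that pairs its libraries, since the tables were scaled apart: the FPKM of FSP1+ was 1.15 times as high in its table with uninjured as in that with αSMA+, that of αSMA+ 0.844 times as high with FSP1+ as with uninjured, and that of uninjured 1.15 times as high with FSP1+ as with αSMA+. Log2 ratios were taken after adding 1 FPKM, and genes with at least 1 FPKM in either library count as measured. As a check of the labels, S100a4 had 30.8 FPKM in the library labelled FSP1+ against 12 in that labelled αSMA+ (log2 ratio 1.29). Acta2, whose promoter drives GFP in the αSMA-GFP mice, had 279.8 FPKM in the library labelled FSP1+ against 65 in that labelled αSMA+ (log2 ratio 2.09), and for αSMA+ over uninjured its value was −0.30 on this scale. Acta2 thus goes against the label αSMA+, and the titles and descriptions of the sample records carry different numbers, so the libraries are named here by their labels only. Markers of other cell types were not even between the libraries, and their values stand beside the interferon genes further on. In bulk RNA of this kind, fewer cells of a type and less RNA per cell cannot be told apart.

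Each of the 4 named immunoproteasome genes exceeded both other libraries by at least 2-fold in FSP1+, and the αSMA+ and uninjured libraries lay within 2-fold of each other for each of them. Some of this depends on scaling. Psme2 fell short of 2-fold for FSP1+ over αSMA+ with median-centred ratios (0.97) and through the uninjured library (0.81), and with FPKM converted to TPM, which gives every library the same sum, Psmb9 and Psmb10 were at least 2-fold lower in αSMA+ than in uninjured (−1.22 and −1.14). Few constitutive genes stood apart in the same way. Of 43 measured members, 5 were at least 2-fold higher in FSP1+ than in αSMA+, which is 11.6% beside 20.1% of 10387 measured protein-coding genes, and 1 was at least 2-fold lower, beside 12.8%. Against the uninjured library, 6 of 43 were at least 2-fold higher in FSP1+ (14.0%, beside 15.2% of 11077 genes) and 0 lower (beside 12.3%). In αSMA+ over uninjured, 14 of 43 were at least 2-fold higher (32.6%, beside 18.2% of 10798 genes) and 0 lower (beside 6.39%), and all 14 were constitutive. This last count depends on scaling, since it was 1 of 43 with TPM, beside 10.4% of all measured protein-coding genes, and 7 of 43 with the ratio taken through the FSP1+ library, beside 14.3%. The share of members was thus below that of all genes with TPM and near it by the route through FSP1+. The median log2 ratio over all measured protein-coding genes was 0.09 for FSP1+ over αSMA+, 0.11 for FSP1+ over uninjured and 0.10 for αSMA+ over uninjured.

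**Figure D1:**
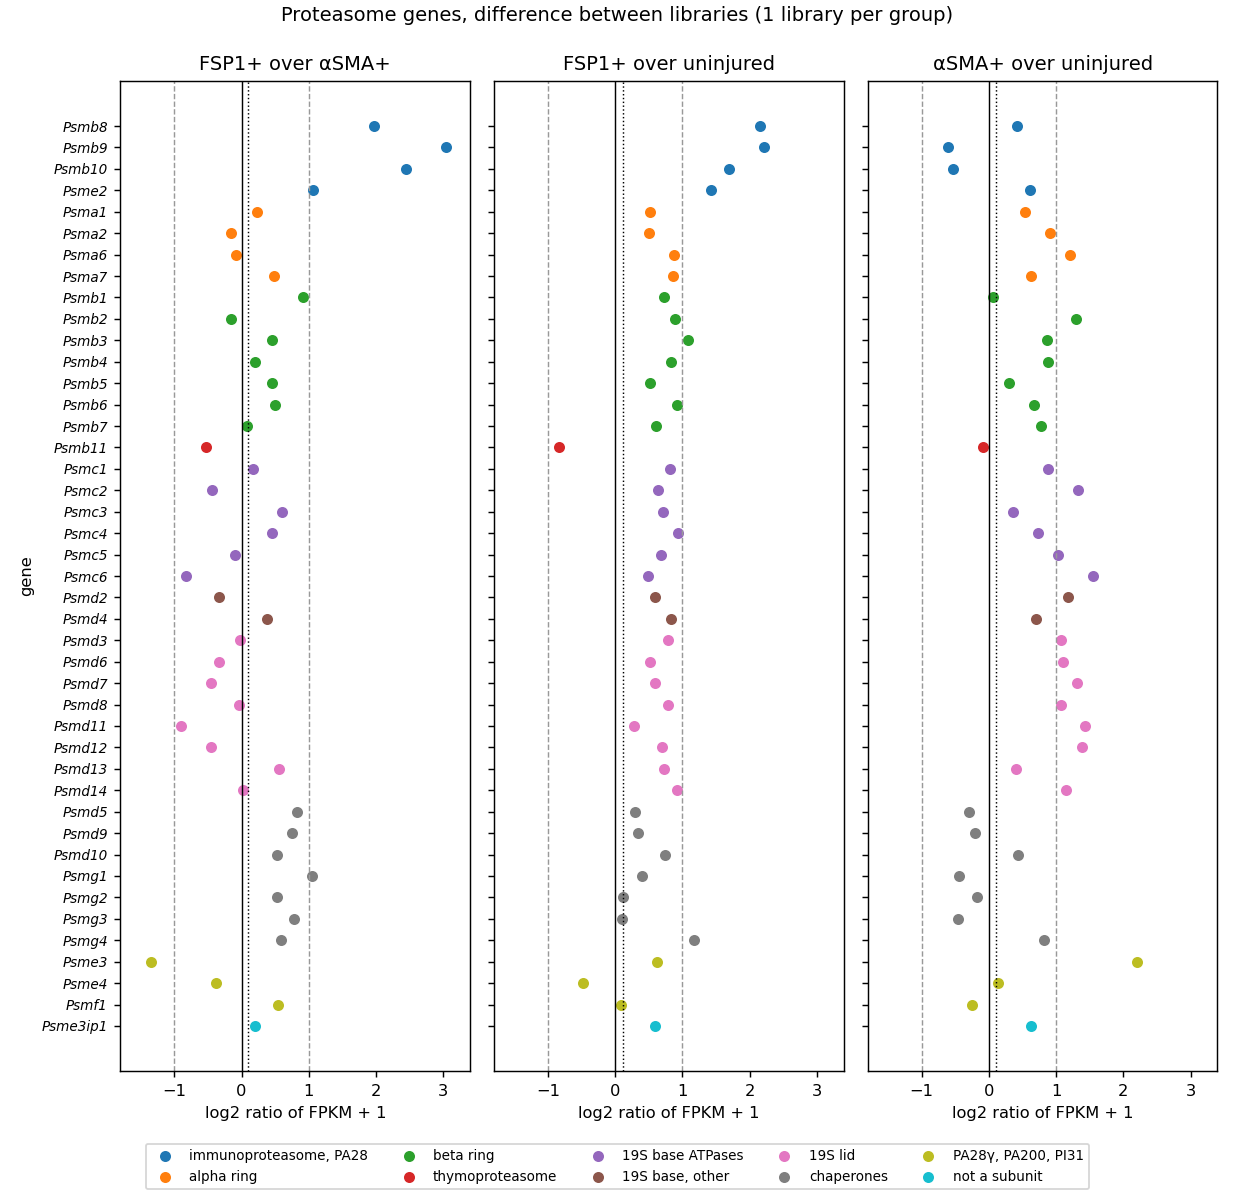
Log2 ratio of FPKM with 1 added for the 43 measured proteasome genes in each comparison, 1 point per gene and 1 library per group, coloured by group of subunits. The solid line marks 0, the dotted line the median of all measured protein-coding genes (0.09, 0.11 and 0.10 from left to right) and the dashed lines a 2-fold difference. Psmb8, Psmb9, Psmb10 and Psme2 lie beyond 2-fold in both comparisons of FSP1+ and within it in αSMA+ over uninjured, where most 19S genes lie near or beyond 2-fold.

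Psmb9 encodes β1i, which lowers cutting after acidic residues, and had the widest difference of the family. It had 70.1 FPKM in the library labelled FSP1+ against 7.64 in that labelled αSMA+ (log2 ratio 3.04). Against the uninjured library it had 80.5 against 16.6 FPKM (2.21) in FSP1+, and in αSMA+ it had 9.07 against 14.4 FPKM (−0.61). In each table with it, the FSP1+ library was thus the higher and the αSMA+ library the lower. Psmb10, which encodes β2i with trypsin-like activity, had 67.8 FPKM in the library labelled FSP1+ against 11.6 in that labelled αSMA+ (log2 ratio 2.45). It showed the same order of libraries, with 77.8 against 23.4 FPKM (1.69) for FSP1+ against uninjured and 13.7 against 20.3 FPKM (−0.53) for αSMA+ against uninjured. Psmb8, which encodes β5i with chymotrypsin-like activity, was the most abundant of the 3 and had 142 FPKM in the library labelled FSP1+ against 35.4 in that labelled αSMA+ (log2 ratio 1.98). It had 163 against 36 FPKM (2.15) for FSP1+ against uninjured and 42 against 31.1 FPKM (0.42) for αSMA+ against uninjured, so that the αSMA+ and uninjured libraries were close (with TPM the αSMA+ value was −0.20) and the FSP1+ library stood above both. Across the alternatives of pseudocount, centring, TPM and the route through the third library, no log2 ratio of Psmb8, Psmb9 or Psmb10 that reached 2-fold changed sign. A pseudocount cannot change a sign, and the others shift all genes of a comparison nearly alike, so ratios this wide had little room to do so.

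The make-up of the catalytic sites can be compared within a library, where no scaling between libraries enters. The constitutive counterparts differed by less than 2-fold between any pair of libraries. Psmb5 (β5) had 101 against 73 FPKM (0.46) in FSP1+ against αSMA+, 116 against 80.5 FPKM (0.52) in FSP1+ against uninjured and 86.5 against 70.2 FPKM (0.30) in αSMA+ against uninjured. Psmb6 (β1) had 104 against 73.1 FPKM (0.50), 119 against 62.6 FPKM (0.92) and 86.6 against 54.2 FPKM (0.67) in the same order of comparisons, and Psmb7 (β2) had 28.2 against 26.7 FPKM (0.08), 32.3 against 20.8 FPKM (0.61) and 31.6 against 18 FPKM (0.78). All of these ratios were below those of the inducible partner in both comparisons with FSP1+. The log2 ratio of Psmb8 over Psmb5 was 0.49 in the library labelled FSP1+, −1.02 in that labelled αSMA+ and −1.14 in that labelled uninjured. Psmb8 was therefore the more abundant β5-type transcript in FSP1+ alone. The log2 ratio of Psmb10 over Psmb7 was 1.24 in FSP1+, −1.14 in αSMA+ and 0.17 in uninjured, so that this pair turned over between FSP1+ and αSMA+ and was about even in uninjured. Psmb9 stayed below Psmb6 in every library, at −0.56 in FSP1+, −3.10 in αSMA+ and −1.85 in uninjured. The entries of Psmb5 and Psmb7 also span a same-strand gene of a small RNA, which can add to their FPKM and lower these ratios.

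**Figure D2:**
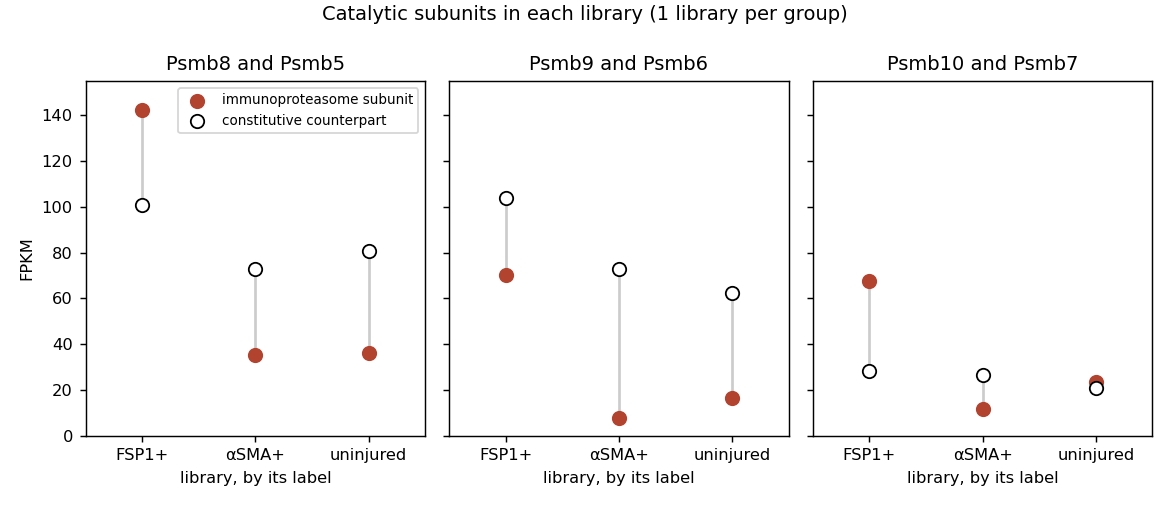
FPKM of each inducible catalytic subunit (filled) and of the constitutive subunit it replaces (open) in the libraries labelled FSP1+, αSMA+ and uninjured, 1 library each. FSP1+ and αSMA+ values are from the table that pairs them and uninjured values from its table with FSP1+, so heights are to be compared within a library. Psmb8 exceeds Psmb5 only in FSP1+ (142 and 101 FPKM), and Psmb10 lies below Psmb7 only in αSMA+ (11.6 and 26.7 FPKM).

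The PA28αβ activator, also induced by interferon γ, was higher in FSP1+ by a smaller factor than the catalytic subunits. Psme2, which encodes PA28β, had 104 FPKM in the library labelled FSP1+ against 49.4 in that labelled αSMA+ (log2 ratio 1.06). For FSP1+ against uninjured it had 119 against 43.8 FPKM (1.43), and for αSMA+ against uninjured 58.5 against 37.9 FPKM (0.61). Psme2 was thus the least different of the 4 in both comparisons with FSP1+, and the highest of the 4 in the αSMA+ library. Psme2b is a close copy of Psme2, and reads from one could have been counted for the other. Psme1, which encodes PA28α, shares its locus on chromosome 14 from 55578494 to 55585254 (GRCm38) with Emc9, and the tables hold 2 entries there. The more abundant entry had 113 against 43.5 FPKM (1.36) in FSP1+ against αSMA+, 129.6 against 47.8 FPKM (1.42) in FSP1+ against uninjured and 51.5 against 41.4 FPKM (0.31) in αSMA+ against uninjured. These values lie close to those of Psme2, but the tables do not say which of the genes this entry is.

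Psmb9 and Psmb8 lie in the class II region of the MHC next to Tap1 and Tap2, the genes of the transporter that moves proteasome products into the endoplasmic reticulum for loading on class I molecules. On chromosome 17 of GRCm38 the entries run in the order Psmb9 (34182099 to 34187330), Tap1 (34187556 to 34197225), Psmb8 (34198195 to 34201454) and Tap2 (34204479 to 34216321), with 225 bases between Psmb9 and Tap1. Tap1 had 53.8 FPKM in the library labelled FSP1+ against 16.2 in that labelled αSMA+ (log2 ratio 1.67), with 1.91 over uninjured for FSP1+ and 0.47 for αSMA+. Tap2 had 86.4 FPKM in the library labelled FSP1+ against 36.5 in that labelled αSMA+ (log2 ratio 1.22), with 1.51 over uninjured for FSP1+ and 0.54 for αSMA+. In the deposited scaling of each pair, all 4 genes of this stretch were thus at least 2-fold higher in FSP1+ than in either other library. Other scalings were not run on Tap1 and Tap2, and Tap2 lay nearest to 2-fold, at 1.22 for FSP1+ over αSMA+. Psmb10 lies apart from them on chromosome 8 (105935728 to 105938392) and Psme2 on chromosome 14 (55587440 to 55591101).

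Promoter windows of RefSeq genes on GRCm38.p6, 250 bases before to 50 after each start, were searched on both strands for short cores of elements known to serve interferon and NRF1 control. Of the 5 immunoproteasome genes all had a window, and of the 40 named constitutive genes 32 had one. The interferon response element core GAAANNGAA was found in 1 of 5 immunoproteasome genes (Psme1) and in 6 of 32 constitutive genes, beside 9.41% of 12627 named protein-coding genes with a window. The gamma-activated site TTCNNNGAA was found in 1 of 5 (Psmb8) and in 2 of 32, beside 8.93%. The antioxidant response element core TGACNNNGC, the element of NRF1, was found in 0 of 5 and in 6 of 32, beside 14.6%. Few windows of either group hold such a match. The CCAAT box was found in 1 of 5 and 13 of 32, beside 42.6%. The windows below are those of the β5i gene and of the β5 and β1 genes, each with its match in capitals, of Psme1, and of Psmb9, the gene with the widest difference, which reaches into the start of Tap1 and holds only a CCAAT box, left in lower case. They are written 5′ to 3′ on the strand of the gene. Capitals mark the gamma-activated site in Psmb8 (base 154 of the window), the antioxidant response element core in Psmb5 (base 204) and Psmb6 (base 242) and the interferon response element core in Psme1 (base 261, on the other strand). No match in capitals overlaps another.
Psmb9, chr17:34187281-34187580, minus strand: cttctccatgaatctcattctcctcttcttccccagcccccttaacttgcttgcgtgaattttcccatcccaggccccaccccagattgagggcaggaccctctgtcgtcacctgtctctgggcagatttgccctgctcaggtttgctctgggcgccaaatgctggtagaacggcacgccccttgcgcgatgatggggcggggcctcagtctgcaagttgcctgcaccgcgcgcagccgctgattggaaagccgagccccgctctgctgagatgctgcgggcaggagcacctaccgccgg
Psmb8, chr17:34197945-34198244, plus strand: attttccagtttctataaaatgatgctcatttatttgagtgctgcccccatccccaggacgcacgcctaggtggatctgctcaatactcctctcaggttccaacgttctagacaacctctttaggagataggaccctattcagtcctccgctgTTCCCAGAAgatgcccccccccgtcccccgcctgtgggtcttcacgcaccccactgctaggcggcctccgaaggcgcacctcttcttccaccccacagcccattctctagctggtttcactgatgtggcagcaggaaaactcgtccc
Psme1, chr14:55578244-55578543, plus strand: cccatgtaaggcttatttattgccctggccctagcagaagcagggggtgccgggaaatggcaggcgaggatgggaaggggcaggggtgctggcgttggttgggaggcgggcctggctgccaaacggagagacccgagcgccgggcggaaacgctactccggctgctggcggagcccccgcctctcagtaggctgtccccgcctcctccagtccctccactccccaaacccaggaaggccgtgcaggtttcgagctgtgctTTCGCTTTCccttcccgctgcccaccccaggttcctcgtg
Psmb5, chr14:54617946-54618245, minus strand: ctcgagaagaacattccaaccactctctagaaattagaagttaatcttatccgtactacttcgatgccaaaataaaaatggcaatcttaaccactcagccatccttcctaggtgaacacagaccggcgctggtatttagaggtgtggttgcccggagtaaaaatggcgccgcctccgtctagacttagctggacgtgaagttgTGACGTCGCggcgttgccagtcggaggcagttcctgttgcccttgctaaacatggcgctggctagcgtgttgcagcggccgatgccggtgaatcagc
Psmb6, chr11:70525107-70525406, plus strand: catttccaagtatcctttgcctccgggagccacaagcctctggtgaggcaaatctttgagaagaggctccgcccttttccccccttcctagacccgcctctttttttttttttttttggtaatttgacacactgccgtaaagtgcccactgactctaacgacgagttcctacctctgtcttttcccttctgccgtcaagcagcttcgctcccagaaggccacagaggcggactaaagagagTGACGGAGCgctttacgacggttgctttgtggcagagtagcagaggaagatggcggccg

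The other subunits of the 20S core were abundant in all libraries and differed less. The median over 11 measured core genes was 101 FPKM in the library labelled FSP1+ and 73 FPKM in that labelled αSMA+ in the table that pairs them, and 62.6 FPKM in the uninjured library in its table with FSP1+. The median log2 ratio of the core was 0.24 for FSP1+ over αSMA+, 0.83 for FSP1+ over uninjured and 0.78 for αSMA+ over uninjured. All 11 genes lay above 0 in both comparisons with uninjured, beside 54.9% of all measured genes for FSP1+ and 55.5% for αSMA+. Only 1 and 2 of them reached 2-fold (9.09% and 18.2%, beside 15.2% and 18.2%). Through the αSMA+ library, Psma6, Psma7, Psmb2, Psmb3, Psmb4 and Psmb6 reached it for FSP1+ over uninjured, beside 20.4% of all measured genes. With TPM the median for αSMA+ over uninjured was 0.18, and Psma1, Psmb1 and Psmb5 were below 0 (−0.08, −0.56 and −0.33). With the ratio taken through the uninjured library, the median for FSP1+ over αSMA+ was −0.01, so a difference in the core between these libraries is not held under every scaling.

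In the β ring, Psmb1 (β6) had the highest ratio for FSP1+ over αSMA+, with 113 against 59.3 FPKM (0.92), and the lowest for αSMA+ over uninjured, with 70.3 against 67.4 FPKM (0.06). Psmb2 (β4) showed the reverse, with 108 against 120.4 FPKM (−0.15) in FSP1+ against αSMA+ and 143 against 57.8 FPKM (1.29) in αSMA+ against uninjured, and was the only β gene at least 2-fold higher in αSMA+ than in uninjured. Psmb3 (β3) was the only β gene at least 2-fold higher in FSP1+ than in uninjured, with 150.4 against 70.8 FPKM (1.08), and Psmb4 (β7) lay between these, with ratios from 0.20 to 0.87. These subunits carry no active site. For FSP1+ over uninjured, Psmb3 fell short of 2-fold with median-centred ratios (0.97) and with TPM (0.85). Through the αSMA+ library, Psmb2, Psmb4 and Psmb6 also passed 2-fold in that comparison (1.14, 1.07 and 1.17). In the α ring, Psma7 (α4) had the highest level, at 140.4 FPKM in FSP1+ and 99.9 in αSMA+ (log2 ratio 0.49), and 161 against 88.2 FPKM (0.86) in FSP1+ against uninjured. Psma6 (α1) had 81.3 against 34.8 FPKM (1.20) in αSMA+ against uninjured, the only named α gene past 2-fold there, and 74.2 against 40.1 FPKM (0.87) in FSP1+ against uninjured. Psma2 (α2) had the lowest α ratio in both comparisons of FSP1+, with 68.1 against 76.2 FPKM (−0.16) over αSMA+ and 78.2 against 54.9 FPKM (0.50) over uninjured, and Psma1 (α6) the lowest for αSMA+ over uninjured, with 55.7 against 38.1 FPKM (0.53). The more abundant entries at the loci of Psma3, Psma4 and Psma5 had log2 ratios of −0.45, 0.38 and −0.39 for FSP1+ over αSMA+ and of 1.17, 0.36 and 1.16 for αSMA+ over uninjured. Psma8, the α4 form of the testis, was below 1 FPKM in all libraries and was not measured.

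Genes of the 19S regulatory particle were higher in αSMA+ than in uninjured. In the deposited scaling of each pair, more of them passed 2-fold there than in the other comparisons. This contrast depends on scaling. Of 16 measured 19S genes, 11 were at least 2-fold higher in αSMA+ than in uninjured (68.8%, beside 18.2% of all measured protein-coding genes). All 16 lay above 0, beside 55.5% of all measured genes, with a median log2 ratio of 1.10. With TPM this median was 0.48, none of the 16 reached 2-fold, with Psmc6 the highest (0.95), and Psmc3 and Psmd13 were below 0 (−0.26 and −0.20). In FSP1+ over uninjured all 16 also lay above 0 (beside 54.9%), none reached 2-fold (beside 15.2%), and the median was 0.70. Through the αSMA+ library, Psmc1, Psmc4, Psmd3, Psmd4, Psmd8 and Psmd14 reached 2-fold there, at 1.04 to 1.19, beside 20.4% of all measured genes. In FSP1+ over αSMA+ 6 lay above 0 (beside 53.3% of all measured genes) and 10 below, with a median of −0.07 that was 0.08 with TPM. Within a library, the median level of the 19S genes was 0.587 of that of the 20S genes in FSP1+, 0.833 in αSMA+ and 0.647 in uninjured, a ratio that no scaling between libraries affects.

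The 6 ATPases of the base, which unfold the substrate, ranged in log2 ratio for αSMA+ over uninjured from 0.36 for Psmc3 (Rpt5) to 1.56 for Psmc6 (Rpt4). Psmc6 had 70.8 against 23.4 FPKM (1.56) in αSMA+ against uninjured and 33.2 against 59.7 FPKM (−0.83) in FSP1+ against αSMA+. Psmc3 had 79.9 against 52.5 FPKM (0.60) in FSP1+ against αSMA+ and 62.2 against 48.4 FPKM (0.36) in αSMA+ against uninjured. These subunits of 1 ring therefore differed in opposite directions between FSP1+ and αSMA+. Psmc2 (Rpt1) had 72.2 against 28.2 FPKM (1.32) and Psmc5 (Rpt6) 72 against 34.8 FPKM (1.03) in αSMA+ against uninjured, where the entry of Psmc5 also spans a small RNA gene. Psmc4 (Rpt3) had the highest ratio of the ring for FSP1+ over uninjured, with 100.5 against 52 FPKM (0.94), and Psmc6 the lowest, with 38.2 against 27 FPKM (0.48). Psmc1 (Rpt2) lay inside these ranges in all 3 comparisons. Of the other base genes, Psmd2 (Rpn1) had 92.1 against 40.3 FPKM (1.17) in αSMA+ against uninjured. In FSP1+ against αSMA+ it had 61.6 against 77.7 FPKM (−0.33). Psmd4 (Rpn10), a receptor of ubiquitin chains, had 61.3 against 37.2 FPKM (0.71) and 67.3 against 51.7 FPKM (0.38) in the same comparisons. In FSP1+ against uninjured Psmd4 had 77.3 against 43 FPKM (0.83), beside 70.7 against 46.5 FPKM (0.59) for Psmd2. The more abundant entry at the locus of Psmd1 (Rpn2), shared with Htr2b, had 52.7 against 20.9 FPKM (1.29) in αSMA+ against uninjured and 26.5 against 44.5 FPKM (−0.73) in FSP1+ against αSMA+.

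In the lid, 7 of 8 genes were at least 2-fold higher in αSMA+ than in uninjured, beside 18.2% of all measured protein-coding genes. With TPM no lid gene reached 2-fold there. Psmd11 (Rpn6), whose level is known to set proteasome activity in human embryonic stem cells, had the highest ratio, with 76.2 against 27.7 FPKM (1.43), and also the lowest lid ratio for FSP1+ over αSMA+, with 33.9 against 64.3 FPKM (−0.90), and for FSP1+ over uninjured, with 38.9 against 32 FPKM (0.28). Psmd12 (Rpn5) had 61 against 22.6 FPKM (1.39) and Psmd7 (Rpn8) had 119 against 47.7 FPKM (1.31) in αSMA+ against uninjured. Psmd14 (Rpn11), the enzyme that removes the ubiquitin chain, had 39.6 against 17.4 FPKM (1.14) in αSMA+ against uninjured and, with 38.8 against 20.04 FPKM (0.92), the highest lid ratio for FSP1+ over uninjured, and its entry spans a small RNA gene. The other 3 past 2-fold in αSMA+ against uninjured were Psmd6 (Rpn7) with 60.6 against 27.5 FPKM (1.11), Psmd8 (Rpn12) with 91.6 against 42.8 FPKM (1.08) and Psmd3 (Rpn3) with 75.2 against 35.3 FPKM (1.07). Psmd13 (Rpn9) was the exception in the lid. It had 26.2 against 19.6 FPKM (0.40) in αSMA+ against uninjured and, with 33 against 22.1 FPKM (0.56), the highest lid ratio for FSP1+ over αSMA+. No lid gene reached 2-fold between FSP1+ and αSMA+.

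**Figure D3:**
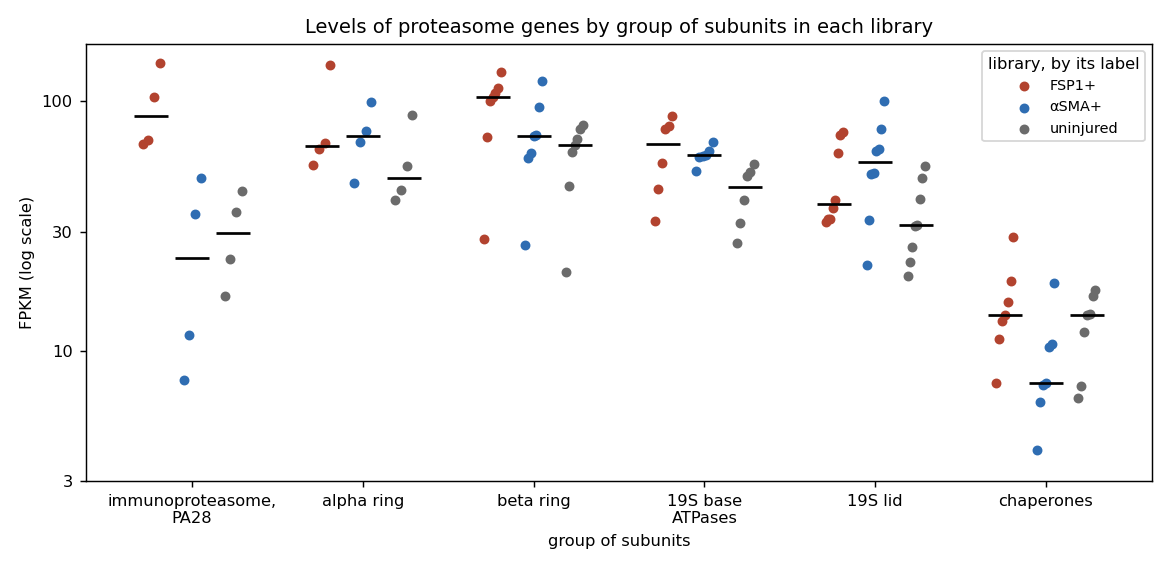
FPKM on a log scale of the named genes in 6 groups of subunits in the libraries labelled FSP1+, αSMA+ and uninjured, 1 point per gene, 1 library per group, with black bars at the median and Psma8 left out. FSP1+ and αSMA+ values share a table and uninjured values come from its table with FSP1+. The immunoproteasome group has a median of 87.1 FPKM in FSP1+, 23.5 in αSMA+ and 29.7 in uninjured, and the chaperones have the lowest median of the groups in each library.

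The chaperones that assemble the particle and then leave it were low and were higher in FSP1+ than in αSMA+. Their median was 13.9 FPKM in FSP1+ and 7.46 FPKM in αSMA+. All 7 had a positive ratio for FSP1+ over αSMA+ (median 0.75, lowest 0.52 for Psmd10), beside 53.3% of all measured genes. For αSMA+ over uninjured, 5 of 7 had a negative ratio, while 16 of 16 genes of the 19S particle and 11 of 11 of the 20S core had a positive one. Of all measured genes, 55.5% had a positive ratio there. With TPM, Psmc3 and Psmd13 of the 19S particle and Psma1, Psmb1 and Psmb5 of the core were below 0. Psmg1 (PAC1), which helps to build the α ring, had 13.9 against 6.21 FPKM (1.05) in FSP1+ against αSMA+, the only constitutive gene at least 2-fold higher in that comparison (with median-centred ratios 0.96), and 7.36 against 10.3 FPKM (−0.44) in αSMA+ against uninjured. Psmg4 (PAC4) had 32.8 against 14 FPKM (1.17) in FSP1+ against uninjured and 22.2 against 12.1 FPKM (0.82) in αSMA+ against uninjured, and was the only chaperone past 2-fold in FSP1+ over uninjured. Psmg3 (PAC3), its partner, had 15.1 against 14 FPKM (0.10) and 8.62 against 12.2 FPKM (−0.45) in the same comparisons, the lowest chaperone ratio in both. Psmg2 (PAC2), the partner of Psmg1, had 15.7 against 10.7 FPKM (0.52) in FSP1+ against αSMA+, and the base chaperones Psmd5, Psmd9 and Psmd10 had log2 ratios of 0.82, 0.75 and 0.52.

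PA28γ (Psme3), the nuclear relative of PA28αβ that interferon does not induce, differed between FSP1+ and αSMA+ in the opposite direction to the immunoproteasome genes. It had 18.9 FPKM in the library labelled FSP1+ against 49.5 in that labelled αSMA+ (log2 ratio −1.34), the only member at least 2-fold lower in that comparison. In αSMA+ against uninjured it had 58.7 against 11.9 FPKM (2.21), the highest ratio of all members there, and in FSP1+ against uninjured 21.7 against 13.7 FPKM (0.62). Within the PA28 family, Psme2 was therefore above Psme3 by 104 against 18.9 FPKM in FSP1+, while both were about equal, at 49.4 and 49.5 FPKM, in αSMA+. Psme4 (PA200) had 11 against 14.7 FPKM (−0.38) in FSP1+ against αSMA+, 12.7 against 18.1 FPKM (−0.48) in FSP1+ against uninjured and 17.4 against 15.7 FPKM (0.14) in αSMA+ against uninjured. Psmf1, which encodes the inhibitor PI31, was lower in level, with 5.86 against 3.72 FPKM (0.54), 6.72 against 6.30 FPKM (0.08) and 4.41 against 5.46 FPKM (−0.26) in the same order. Psmb11 (β5t of the thymoproteasome, known from the thymic cortex) was close to the limit of measurement, with 1.32 against 2.35 FPKM (−0.53), 1.51 against 3.48 FPKM (−0.84) and 2.79 against 3.02 FPKM (−0.09). Psme3ip1, which matches the naming rule but encodes a binding protein of PA28γ and not a subunit, lay within 2-fold throughout, from 0.20 for FSP1+ over αSMA+ to 0.62 for αSMA+ over uninjured.

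Genes that feed, accompany or control the proteasome were also read. In this and the following lists, counts stand beside shares of all measured protein-coding genes. Higher by at least 2-fold were 18.2% in αSMA+ over uninjured, 15.2% in FSP1+ over uninjured and 20.1% in FSP1+ over αSMA+. Lower were 6.39%, 12.3% and 12.8%. Neither TPM nor the route through the third library was run on these lists. TPM moved the median of all measured genes for αSMA+ over uninjured from 0.10 to −0.43. The route through the third library moved it from 0.09 to −0.12 for FSP1+ over αSMA+ and from 0.11 to 0.31 for FSP1+ over uninjured. Counts in each comparison may therefore depend on scaling. Of 7 measured regulators of proteasome genes, 7 were at least 2-fold higher in αSMA+ than in uninjured (median log2 ratio 2.0) and 4 in FSP1+ than in uninjured (median 1.41). For FSP1+ over αSMA+ all 7 had a negative ratio (median −0.91), while 53.3% of all measured genes had a positive one. Nfe2l1 (NRF1), the factor that raises subunit genes when the proteasome is inhibited, had 51.9 against 82.5 FPKM (−0.66) in FSP1+ against αSMA+ and 97.7 against 34.3 FPKM (1.48) in αSMA+ against uninjured. Nfe2l2 (NRF2) had 72.6 against 182 FPKM (−1.31) and 216 against 25.5 FPKM (3.03). Maff, a small MAF partner of both factors, differed most of the list, and the small MAF genes had 19 against 97.3 FPKM (−2.29) for Maff and 58.4 against 126 FPKM (−1.10) for Mafk in FSP1+ against αSMA+, and log2 ratios of 4.56 and 3.08 in αSMA+ over uninjured. In αSMA+ over uninjured, the log2 ratio of Ddi2, the protease that activates NRF1, was 1.47, that of Vcp, the segregase that draws it from the membrane, 1.11, and that of Bach1, a repressor at antioxidant response elements, 2.0. In FSP1+ over uninjured, Nfe2l2, Maff, Mafk and Bach1 passed 2-fold, with 1.47, 2.04, 1.74 and 1.41.

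Among 13 measured partners of the proteasome, the median log2 ratio was 1.54 for αSMA+ over uninjured (7 at least 2-fold higher), 0.73 for FSP1+ over uninjured (4 higher) and −0.36 for FSP1+ over αSMA+ (1 lower). Sem1, the smallest lid subunit, had 365 against 167 FPKM (1.12) in FSP1+ against uninjured. Pomp, the chaperone that completes the 20S core, had 148 against 61 FPKM (1.26). For αSMA+ over uninjured their log2 ratios were 0.57 and 0.83, within 2-fold. Adrm1 (Rpn13), a ubiquitin receptor of the base, had 134 against 45.5 FPKM (1.54) in αSMA+ against uninjured, and Txnl1, a thioredoxin bound to the 19S particle, had 119 against 30.8 FPKM (1.91). The shuttle factors Ubqln1, Ubqln4 and Rad23b had log2 ratios of 2.09, 1.80 and 1.90 there, and Rad23b was at least 2-fold lower in FSP1+ than in αSMA+, with 6.30 against 21.4 FPKM (−1.62). Zfand2a and Zfand5, which are known to answer protein stress and to stimulate the proteasome, were past 2-fold in both comparisons with uninjured, at 2.05 and 1.22 in FSP1+ and 2.12 and 2.10 in αSMA+. Of 3 further measured genes of ubiquitin supply, 1 was at least 2-fold higher in FSP1+ than in uninjured and 1 in αSMA+ than in uninjured, and none was 2-fold apart between FSP1+ and αSMA+. Ubb, a gene of polyubiquitin, had 2109.7 against 765 FPKM (1.46) in FSP1+ against uninjured and 1211 against 662 FPKM (0.87) in αSMA+ against uninjured. The activating enzyme Uba1 had a log2 ratio of 0.79 in FSP1+ and 1.01 in αSMA+ over uninjured.

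Interferon signalling genes stood beside the immunoproteasome genes in part. Of 10 measured, 5 were at least 2-fold higher and 1 lower in FSP1+ than in αSMA+ (median log2 ratio 0.94), 8 higher in FSP1+ than in uninjured (median 1.18) and 3 higher in αSMA+ than in uninjured (median 0.50). Irf1, which binds the promoters of Psmb8, Psmb9 and Psmb10, had 179.6 against 51.3 FPKM (1.79) in FSP1+ against αSMA+, 206 against 18.5 FPKM (3.41) in FSP1+ against uninjured and 60.8 against 16 FPKM (1.86) in αSMA+ against uninjured and was thus also higher in αSMA+ than in uninjured, where Psmb9 and Psmb10 were not. Irf7 had 106 against 17.5 FPKM (2.53) in FSP1+ against αSMA+, and Stat2, Irf8 and Socs1 had log2 ratios of 1.34, 1.10 and 1.29. Jak2, the kinase of the interferon γ receptor, went the other way there, with 17 against 35.7 FPKM (−1.03), and had 42.3 against 7.68 FPKM (2.32) in αSMA+ against uninjured, the highest ratio of the list in that comparison, and 19.5 against 8.86 FPKM (1.06) in FSP1+ against uninjured. In FSP1+ over uninjured, Irf7, Stat2, Irf8 and Socs1 had log2 ratios of 2.63, 1.29, 1.19 and 1.16. Irf9 and Irf2 also passed 2-fold there (1.23 and 1.09), and Irf2 also in αSMA+ over uninjured (1.40). The receptor genes Ifngr1 and Ifngr2 lay within 2-fold, at 0.75 and 0.18 for FSP1+ over αSMA+. Ifng itself was not measured, at 0.190 FPKM in FSP1+, listed at 0 in αSMA+ and at 0.277 FPKM in uninjured.

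The class I display genes behind the proteasome did not all follow it. Of 7 measured, 3 were at least 2-fold higher in FSP1+ than in αSMA+, namely Tap1, Tap2 and H2-K1, a class I heavy chain with 863 against 308 FPKM (1.49). H2-K1 also had 991 against 174 FPKM (2.499) in FSP1+ against uninjured and 365 against 151 FPKM (1.27) in αSMA+ against uninjured. The peptide trimmer Erap1 and the folding chaperones Canx, Calr and Pdia3 lay within 2-fold for FSP1+ over αSMA+, from −0.76 for Canx to 0.28 for Calr, and Canx and Erap1 passed 2-fold in αSMA+ over uninjured (1.18 and 1.01). Pdia3 had 261 against 306 FPKM (−0.23) in FSP1+ against αSMA+.

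Markers of cell types other than fibroblasts, some of which are rich in the immunoproteasome, also differed between the libraries. Of 13 measured macrophage and monocyte markers, 10 were at least 2-fold higher in FSP1+ than in αSMA+, with a summed level of 3739 FPKM in FSP1+ and 1317 in αSMA+, and 13 were higher in FSP1+ than in uninjured (4294 and 137 FPKM). In αSMA+ over uninjured, 12 of 13 were at least 2-fold higher (1561 and 119 FPKM). The immunoproteasome median in that comparison was −0.06, with Psmb8 at 0.42, Psme2 at 0.61, Psmb9 at −0.61 and Psmb10 at −0.53. Ptprc, which encodes the CD45 used in the gate, had 12.1 against 9.0 FPKM (0.39) in FSP1+ against αSMA+ and 13.9 against 3.79 FPKM (1.64) in FSP1+ against uninjured. Lyz2 had 1063 against 469 FPKM (1.18) in FSP1+ against αSMA+, C1qb 776 against 217 FPKM (1.83), C1qc 627 against 159.7 FPKM (1.97) and Cd14 313 against 146 FPKM (1.10). All of the 11 measured endothelial markers were higher in FSP1+ than in αSMA+, 10 of them at least 2-fold, with summed levels of 1062 and 275 FPKM, and those of pericytes and smooth muscle were at least 2-fold higher in 6 of 6 (401 and 93.4 FPKM). In FSP1+ over uninjured, 11 of 11 endothelial markers (median log2 ratio 3.93) and 3 of 6 pericyte and smooth muscle markers (median 1.25) were at least 2-fold higher. In αSMA+ over uninjured, 8 of 11 endothelial markers were at least 2-fold higher (median 1.91), and of the pericyte and smooth muscle markers 0 were higher and 2 lower (median −0.07). Pecam1, which encodes the CD31 used in the gate, had 157 against 41.8 FPKM (1.88), Esam 256 against 38.7 FPKM (2.69), Kdr 116 against 21.5 FPKM (2.38) and Tie1 133 against 34 FPKM (1.93) in FSP1+ against αSMA+. Markers of T and NK cells, the usual makers of interferon γ, were at most 5.83 FPKM in any library. The fibroblast marker Pdgfra had 16.5 against 323 FPKM (−4.21) in FSP1+ against αSMA+, Col1a1 899.5 against 266 FPKM (1.75), Col3a1 1023 against 328 FPKM (1.64), Dcn 851 against 3145 FPKM (−1.88) and Gsn 2426 against 20694 FPKM (−3.09), and the 5 measured cardiomyocyte markers summed to 38.7 FPKM in FSP1+ and 59.4 in αSMA+. Of 9 measured fibroblast markers, 3 were at least 2-fold higher and 4 lower in FSP1+ than in αSMA+. In FSP1+ over uninjured, 0 were higher and 7 lower (median log2 ratio −1.24), with 19 against 433 FPKM (−4.44) for Pdgfra, and in αSMA+ over uninjured 1 was higher and 3 lower (median 0.03). The part of these cell types in the immunoproteasome values was not tested.

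**Figure D4:**
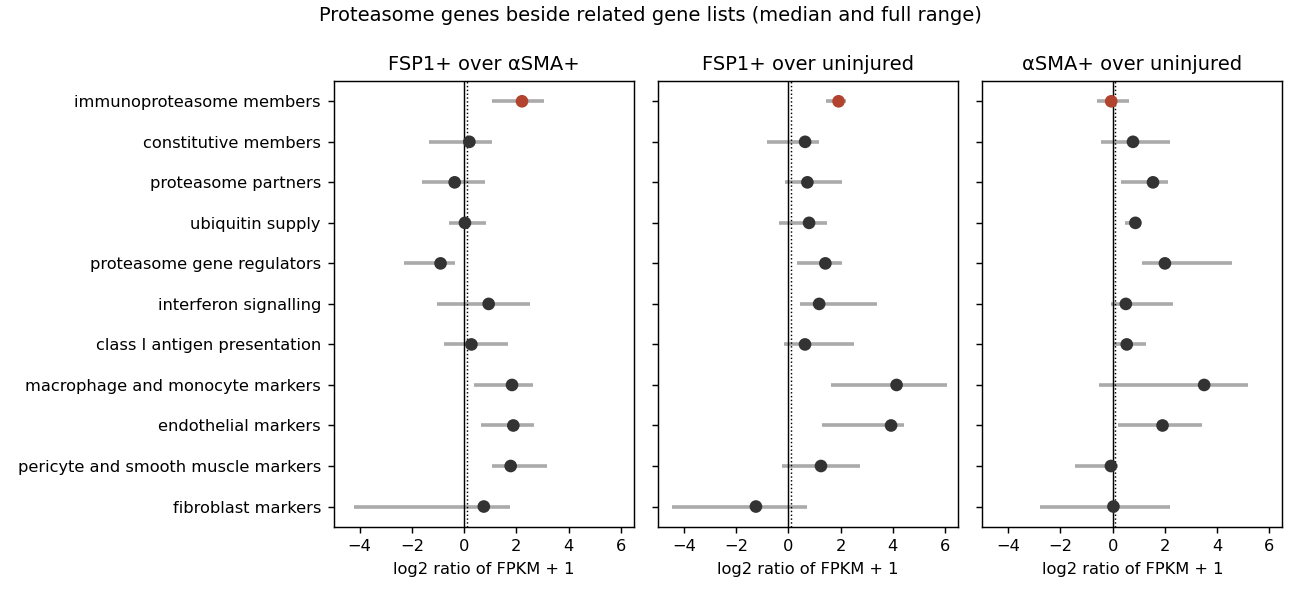
Median (point) and full range (bar) of the log2 ratio of FPKM with 1 added over the measured genes of each list in each comparison, 1 library per group, with the immunoproteasome genes in red, a solid line at 0 and a dotted line at the median of all measured protein-coding genes. The immunoproteasome median is 2.21 for FSP1+ over αSMA+, 1.92 for FSP1+ over uninjured and −0.06 for αSMA+ over uninjured. The macrophage median is 1.83, 4.14 and 3.50 in the same order.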

How the data were processed

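RNA of 3 libraries of sorted or plated mouse heart fibroblasts was measured, 1 per group. The authors used the Tuxedo Suite for alignment to GRCm38 and deposited FPKM from Cuffdiff (version not stated) in 3 tables of 31930 entries, each pairing 2 libraries and scaled on its own. The methods state paired-end reads and an Ensembl annotation, whereas the labels state single reads from a stranded mRNA kit and the tables list UCSC identifiers. The tables also hold Cuffdiff's fold, test statistic, p and q columns, which were not used.

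An offset of 0.001 was removed from each FPKM. Entries alone at their locus were named by position from RefSeq (GRCm38.p6) and GENCODE M21 genes and transcripts, with an overlap of at least 0.8 of the union and any second gene below 0.7, so that 18244 entries got a symbol and 15708 of these a protein-coding one. Reads of processed pseudogenes and near copies may be split between entries. Read numbers were not given, and the steps between the lowest values gave no stable ratio of depth, so no counting interval is given.

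Ratios are log2 of FPKM with 1 added, for genes with at least 1 FPKM in either library, and 2-fold was the threshold. All members are described: values per library for the immunoproteasome genes, the constitutive catalytic subunits, members at least 2-fold apart and the highest and lowest ratio of each group of subunits, and of other lists the 4 most abundant genes and those at least 2-fold apart, of which marker lists are given by their counts and leading genes. Some listed genes were left out of the lists and are not reported here. S100a4 and Acta2 check the labels. Members and lists were chosen with earlier results of these data known. The alternatives were other pseudocounts and filters, median-centred ratios, TPM, ratios through the third library, entries with a small RNA gene left out and shared loci added. After the data were seen, medians of the 20S and 19S groups were added. Figures were drawn with matplotlib 3.10.9, and values computed with pandas 2.3.3 and NumPy 2.4.6 in Python 3.11.15.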

Additional observations from a re-analysis of the deposited data

Results flagged for a closer look

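Psmb9 and Psmb10 were the members at least 2-fold apart in one comparison with uninjured and with a ratio of the opposite sign in the other. The log2 ratio of Psmb9 was 2.21 for FSP1+ over uninjured and −0.61 for αSMA+ over uninjured, and that of Psmb10 was 1.69 and −0.53. Both comparisons share the uninjured library, each group has 1 library, and the difference was not tested.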

How the results depend on the processing

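The 4 immunoproteasome genes as a group kept a median beyond 2-fold for FSP1+ over αSMA+ and for FSP1+ over uninjured under all 9 alternatives run. The other filters and leaving out small RNA entries drop none of the 4, so these could not change it. With shared loci added, the group also held Psme1. The scaling alternatives shift all genes of a comparison nearly alike. The 9 ratios of an inducible over a constitutive catalytic subunit moved by less than 1.5-fold with a pseudocount of 0.1 or 5. The same held in the other table. Counts of members moved more. For FSP1+ over uninjured, 1 member was at least 2-fold lower with a pseudocount of 0.1 and 1 with TPM, against 0, and 17 were higher through the αSMA+ library (beside 20.4% of all genes), against 6. For αSMA+ over uninjured, TPM gave 1 member higher and 4 lower, against 14 and 0, beside 10.4% and 20.9% of all genes. It also gave a constitutive median of 0.18 against 0.78 and an immunoproteasome median of −0.67 against −0.06. The route through the FSP1+ library gave 7 higher, beside 14.3%. For FSP1+ over αSMA+, 3 members were higher with median-centred ratios (beside 17.4%) and 3 through the uninjured library (beside 15.8%), against 5. By that route 3 were lower (beside 19.2%), against 1. The cause was not tested. Of 645 single-gene ratios under alternatives, 37 moved by more than 1.5-fold, all of them for αSMA+ over uninjured with TPM. None beyond 2-fold changed sign, which a pseudocount cannot cause and near-even shifts of a comparison make unlikely. TPM divides by the summed FPKM of all entries, which shifted the median of all measured genes for αSMA+ over uninjured to −0.43, against 0.10. No paired analysis was possible because each group has 1 library, and for the same reason no replicate could be left out. The depth is unknown, which limits low values such as those of Psmb11 most.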
